A study of Mus musculus with 4 samples.

Results

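The barcodes described here are those in which mitochondrially encoded genes gave a large share of the RNA. Of 44576 barcodes in 4 single-cell RNA-seq libraries of mouse small intestinal epithelium, 38854 had at least 1000 UMIs (unique molecular identifiers, one per captured RNA molecule) and at least 500 genes, and 5982 of these had 30% or more of their UMIs from genes whose symbols begin with mt-. These 5982 are called the high-mitochondrial barcodes, and the other 32872 are called the rest. They were chosen by their measured mitochondrial share, so that share is given below as a description and is tested nowhere.

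The study compared mice that carry a point mutation in the mitochondrial alanine tRNA gene with wild type mice, and every library came from the small intestine at 25 weeks of age. The mutant libraries carried the G5081A change at a labelled mutation load of 77% (mutant 1) and 81% (mutant 2), and the wild type libraries are called wild type 1 and wild type 2. Mutant 1 and wild type 1 form set A, whose titles state no sex, and mutant 2 and wild type 2 form set B, whose titles state male. Acute colitis appears in the title of the series, while the samples carry no label of such a treatment, and no label says whether the libraries came from separate animals, so every p-value below measures only the spread between these libraries. Cells were sorted after staining for CD45, CD31, TER-119 and CD326 (EpCAM) with DAPI.

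Mitochondrial DNA encodes 13 proteins, all subunits of respiratory complexes I, III, IV and V, while the other subunits come from nuclear genes. The 13 annotated genes are counted as 13 mRNAs here, although some of them overlap. Long transcripts of the mitochondrial genome are cut at the tRNAs that punctuate them, and most of the mRNAs are then polyadenylated, which lets oligo-dT capture them. In the intestine, stem cells at the crypt base feed a cycling compartment, whose progeny become absorptive enterocytes on the villus or secretory Paneth, goblet, enteroendocrine and tuft cells, and enterocytes are shed at the villus tip.

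The mutated gene is shown because it defines the study's groups. Mt-Ta lies at chrM:5018-5086 on the minus strand (mm10, GENCODE vM21) and is 69 bases long. The capital marks the base that pairs with plus-strand position 5081, which is position 6 from the 5′ end of the tRNA.
mt-Ta: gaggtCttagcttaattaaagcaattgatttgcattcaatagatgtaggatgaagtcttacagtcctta
The sequence is that of the reference annotation, and the mutation G5081A is named from position 1 of the mitochondrial plus strand.

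The high-mitochondrial barcodes were unequally spread over the libraries. Mutant 1 held 846 of 12349 barcodes (6.85%) and mutant 2 held 2037 of 10684 (19.1%), against 611 of 5144 (11.9%) in wild type 1 and 2488 of 10677 (23.3%) in wild type 2. Both set B libraries stood above both set A libraries. The mutant libraries averaged 12.96% ± 8.64 and the wild type libraries 17.6% ± 8.08 (SD, n = 2 each), a difference smaller than the spread between libraries (exact two-sided permutation p = 0.667, where 0.33 is the smallest that 2 against 2 libraries can give). Within sets the mutant share was lower by similar amounts: the difference was -5.03 percentage points in set A and -4.24 in set B. Set A was counted with Cell Ranger 7.0.0 and set B with 7.1.0, and the part of this in the difference between sets was not tested.

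Most high-mitochondrial barcodes lay not far above the 30% limit. Their median mitochondrial share was 36.9% in mutant 1 and 38.8% in mutant 2, against 40.2% in wild type 1 and 38.6% in wild type 2. Of the 5982, 3393 lay from 30% to 40%, 1891 from 40% to 50%, 563 from 50% to 60% and 135 above, and 1 barcode, in wild type 2, reached 80%. The 752 barcodes just inside the limit (30 to 32%) had a median of 2753.5 UMIs, and the 718 just outside it (28 to 30%) had 2747, so the limit cuts through a continuous run of values. The high-mitochondrial barcodes held 9.29% and 29.8% of all mitochondrial UMIs in mutant 1 and mutant 2, against 18.1% and 31.2% in wild type 1 and wild type 2. Pairs of libraries shared 26 to 60 barcode sequences, at most 0.484% of the smaller library, and no pair shared more than 1 high-mitochondrial barcode.

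**Figure D1:**
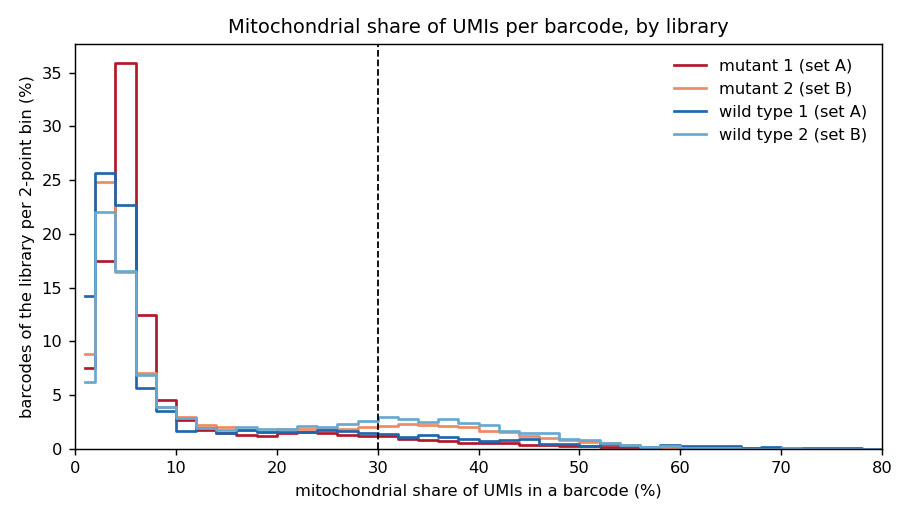
Share of each library's barcodes (y axis, percent per 2-point bin) by mitochondrial share of UMIs (x axis, percent), with 1 line per library and the 30% limit dashed. All 4 libraries peak below 10% and carry a long tail past the limit, with 6.85% (mutant 1), 19.1% (mutant 2), 11.9% (wild type 1) and 23.3% (wild type 2) of barcodes beyond it.

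By their nuclear genes, the high-mitochondrial barcodes were mainly enterocyte-like. Each was given the class held by at least 8 of its 15 nearest neighbours among clustered barcodes of the rest, using nuclear genes only, and the vote was at least 14 of 15 for 82.3%, 91.9%, 80.03% and 92.2% of them in mutant 1, mutant 2, wild type 1 and wild type 2. The enterocyte-like class held 454 high-mitochondrial barcodes in mutant 1 (53.7%) and 1857 in mutant 2 (91.2%), against 317 in wild type 1 (51.9%) and 2291 in wild type 2 (92.1%). In the rest this class made up 10.7% and 29.5% of barcodes in mutant 1 and mutant 2, against 20.5% and 30.3% in wild type 1 and wild type 2. Every high-mitochondrial share stood above every share of the rest, and within the high-mitochondrial barcodes both set B libraries stood above both set A libraries. The mutant minus wild type difference in this share was 0.43 percentage points (exact permutation p = 1), 1.78 in set A alone and -0.919 in set B alone. The relative abundance of the class was higher among high-mitochondrial barcodes by 1.72 on the log2 scale (SE 0.27, adjusted p = 4.91e-06, edgeR's quasi-likelihood test on barcode counts with the library as a block and Benjamini-Hochberg adjustment over 11 classes).

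The summed level of the 18 enterocyte markers was 19162 and 44270 CPM (UMIs per 1000000 nuclear UMIs) in high-mitochondrial barcodes of mutant 1 and mutant 2 and 21272 and 35952 CPM in those of wild type 1 and wild type 2. In the rest it was 4783, 12863, 5482 and 11412 CPM in the same order of libraries, so the groups did not overlap. Of the 18, 15 were called higher and 2 lower at an adjusted p under 0.05 in the fit over all classes described below, in which 26% of genes were called higher and 32.5% lower.

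The secretory classes were nearly empty. Goblet-like cells, which make mucus, gave 22 and 10 high-mitochondrial barcodes in mutant 1 and mutant 2 and 16 and 13 in wild type 1 and wild type 2, which is 0.989% of all 6167 goblet-like barcodes. Paneth-like cells, which secrete antimicrobial defensins at the crypt base, gave 2 in mutant 1, 1 in wild type 2 and none in the other libraries, out of 1216. Zero of 358 Paneth-like barcodes in mutant 2 allows a share of up to 0.838%. Enteroendocrine-like barcodes numbered 9, tuft-like 3 and T-cell-like 2. On the log2 scale the difference in the same fit was -3.98 (SE 0.84, adjusted p = 0.000221) for goblet-like, -6.17 (SE 1.57, adjusted p = 0.00108) for Paneth-like, -4.44 for enteroendocrine-like, -4.31 for tuft-like and -3.74 for T-cell-like barcodes, all called lower. Without mutant 2 or without wild type 2 the enteroendocrine-like class (adjusted p = 0.0612 and 0.0555) and the tuft-like class (0.0708 and 0.0555) were no longer called. At a mitochondrial limit of 40% the tuft-like (0.112) and T-cell-like (0.145) classes were not called.

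Crypt and progenitor classes differed between the sets. Absorptive-progenitor-like barcodes were 29.2% of high-mitochondrial barcodes in mutant 1 and 2.31% in mutant 2, against 17.3% in wild type 1 and 2.09% in wild type 2. In the rest they were 27.9%, 17.1%, 15.1% and 13.4%, so both set A libraries lay slightly above their rest and both set B libraries below it. The class did not pass the test (-1.31 on the log2 scale, SE 0.64, adjusted p = 0.0611), though it did without mutant 1 (0.0470) and without wild type 1 (0.0299). Stem-like barcodes were 5.67%, 2.80%, 12.4% and 3.46% in mutant 1, mutant 2, wild type 1 and wild type 2, below the rest's 11.9%, 9.60%, 29.8% and 18.4% in each library (-1.63, SE 0.70, adjusted p = 0.0408). That call was lost when mutant 2 (adjusted p = 0.129), wild type 1 (0.0667) or wild type 2 (0.212) was left out. Cycling-like barcodes were 6.03%, 0.442%, 1.31% and 0.442% in the same order, against 16.6%, 11.96%, 0.419% and 11.7% in the rest (-2.55, adjusted p = 0.0611). By this class share wild type 1 alone went the other way. Wild type 1 held 27 cycling-like barcodes in all, and without it the class was called lower (adjusted p = 0.00346). The 12 cycling markers themselves were lower in sum in each library, wild type 1 included. They summed to 777, 196, 693 and 199 CPM in high-mitochondrial barcodes, against 1492, 1076, 1240 and 1163 CPM in the rest. The stem-like cluster led by Lgr5, Olfm4 and Htr4, 28.3% of the rest in wild type 1, had 3 cycling markers among its 50 leading genes. Its part in the low cycling-like share was not tested. Different clusters made up the crypt and progenitor classes in different libraries. The cluster led by Olfm4, Lgr5 and Dlgap1 held all 48 stem-like members of mutant 1, the one led by Lgr5, Olfm4 and Htr4 held 66 of 76 in wild type 1, and the one led by Lgr5, Esrrg and Gkn3 held 54 of 57 in mutant 2 and 81 of 86 in wild type 2.

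A further 139 high-mitochondrial barcodes joined clusters without a name, 133 of them a cluster led by Hnrnpa0, Ifitm3 and Snrpg. That cluster held 40 in mutant 2, 75 in wild type 1 and 18 in wild type 2, and none in mutant 1. High-mitochondrial barcodes were 4.95% of that cluster in mutant 2, against 53.6% in wild type 1 and 25.4% in wild type 2.

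**Figure D2:**
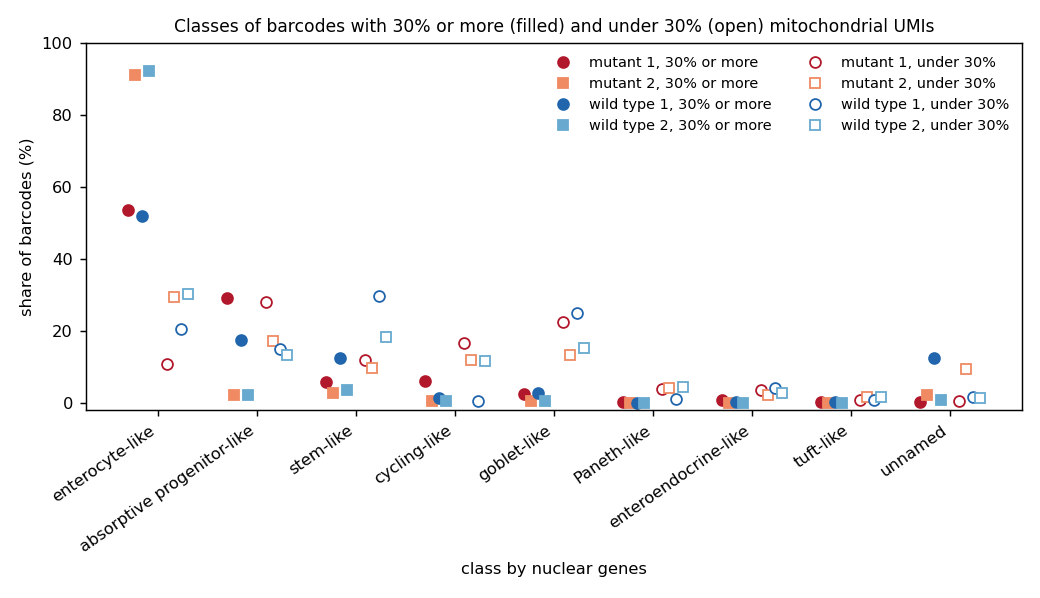
Share of barcodes (y axis, percent) in each class named by nuclear genes (x axis), with filled points for barcodes with 30% or more mitochondrial UMIs and open points for the rest, 1 point per library. The filled enterocyte-like points are at 53.7% and 91.2% (mutant 1 and 2) and at 51.9% and 92.1% (wild type 1 and 2), above the open points at 10.7% to 30.3%.

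Within the enterocyte-like class, 1 of 4 clusters carried most of the high-mitochondrial barcodes. The cluster led by Slc5a12, a monocarboxylate transporter, and Lct, the brush border lactase, held 377 in mutant 1, 1634 in mutant 2, 253 in wild type 1 and 2001 in wild type 2, together 4265 or 71.3% of all high-mitochondrial barcodes. In it 49.6% and 57.0% of barcodes were high-mitochondrial in mutant 1 and mutant 2, against 40.0% and 60.4% in wild type 1 and wild type 2. Its barcodes under 30% also had a high mitochondrial share, with a median of 20.5%.

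The other enterocyte-like clusters held fewer. The cluster led by Slc28a2, Nt5e and Ada, genes of nucleoside transport and purine breakdown, had 17.9% and 28.8% high-mitochondrial barcodes in mutant 1 and mutant 2, against 21.3% and 32.4% in wild type 1 and wild type 2. The cluster led by Fabp1 and Leap2, a fatty-acid-binding protein and an antimicrobial peptide, had 10.5% and 14.7% against 19.9% and 6.02% in the same libraries. The cluster led by Slc10a2, the ileal bile acid transporter, and Abi3bp had 24 high-mitochondrial barcodes of 1344, or 1.79%. The order of these 4 clusters by pooled share, 56.3%, 28.9%, 11.7% and 1.79%, held in each library: the lowest share of the first cluster (40.0%) exceeded the highest of the others (32.4%). Under the joint clustering described under other observations, the Slc5a12 and Slc2a2 cluster held 41.5% of high-mitochondrial barcodes and the Slc28a2 cluster 17.5%. Their pooled shares were 56.8% and 37.2%, and they overlapped between libraries (39.6% in wild type 1 for the former, 41.8% in wild type 2 for the latter). The Fabp1 and Slc10a2 clusters had 1.57% and 2.38% there, in the reverse order.

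**Figure D3:**
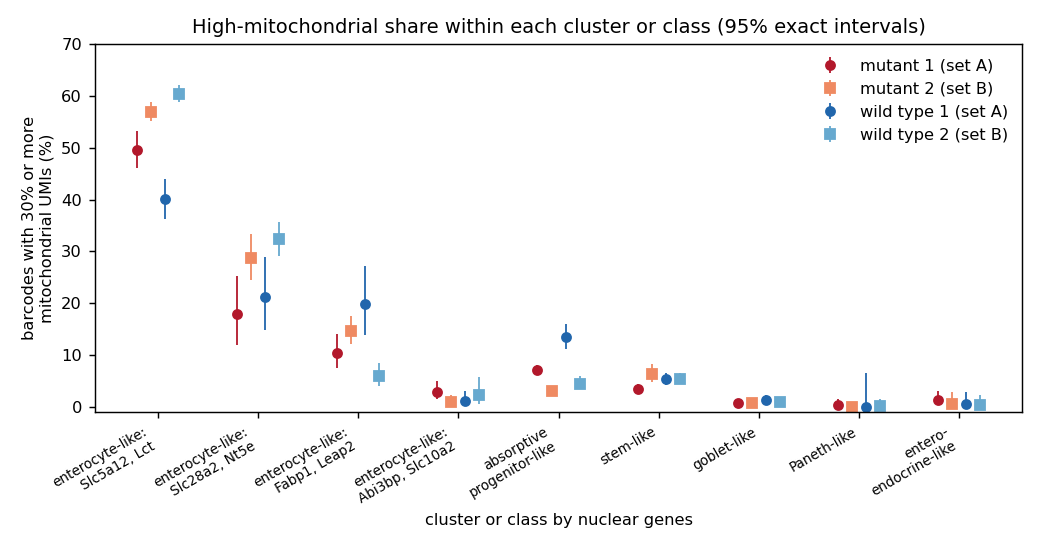
Share of barcodes with 30% or more mitochondrial UMIs (y axis, percent, bars are exact 95% binomial intervals for counting error) in the enterocyte-like clusters and in other classes (x axis), 1 point per library. The Slc5a12 and Lct cluster is at 49.6% and 57.0% (mutant 1 and 2) and at 40.0% and 60.4% (wild type 1 and 2), and the goblet-like, Paneth-like and enteroendocrine-like points lie near 0.

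The make-up of the tail changed at its far end. The enterocyte-like share was 82.5% of barcodes from 30% to 40% mitochondrial UMIs, 86.0% from 40% to 50% and 76.7% from 50% to 60%, but 45.2% of the 135 barcodes above 60% (exact 95% interval 36.6% to 54.0%). Above 60% the share was 57.1% of 14 and 64.5% of 31 barcodes in mutant 1 and mutant 2, against 20.3% of 59 and 67.7% of 31 in wild type 1 and wild type 2. The low pooled value at that end therefore came mainly from wild type 1.

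High-mitochondrial barcodes had fewer nuclear UMIs and more mitochondrial UMIs than the rest. Their median was 1191 and 1662 nuclear UMIs in mutant 1 and mutant 2 and 2146 and 1461 in wild type 1 and wild type 2, against 9323, 10454, 20286 and 10650 in the rest of the same libraries. Their median mitochondrial count was 768, 1112, 1622 and 980 UMIs, against 537, 537, 945 and 577 in the rest. The rule fixes the ratio of the 2 counts, so their sizes are a description.

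How each count contributed differed between cell classes. In the Slc5a12 and Lct cluster, the rest had 1.26, 1.28, 1.17 and 1.35 times as many nuclear UMIs as high-mitochondrial barcodes, and high-mitochondrial barcodes had 2.78, 2.00, 3.68 and 1.89 times as many mitochondrial UMIs, in mutant 1, mutant 2, wild type 1 and wild type 2. In the stem-like and cycling-like classes together, called crypt classes here, the rest had 7.26, 9.87, 8.98 and 12.9 times as many nuclear UMIs, and high-mitochondrial barcodes had 1.30, 1.40, 1.36 and 1.35 times as many mitochondrial UMIs. High-mitochondrial crypt barcodes thus differed from their class mainly in having few nuclear UMIs, while those of the Slc5a12 and Lct cluster differed mainly in having many mitochondrial UMIs. After each barcode was thinned to 500 nuclear UMIs, high-mitochondrial barcodes showed 398 ± 14.4 genes and the rest 385 ± 6.45 (SD over 4 libraries), higher by 13.6 on average (exact sign-flip permutation p = 0.13, the smallest that 4 pairs allow). In the crypt classes the thinned difference was 38.8 genes and in the enterocyte-like class 13.9 genes (exact permutation p = 0.13 for each). It was 17.6 genes in the absorptive-progenitor-like class and 3.25 genes in the Slc5a12 and Lct cluster (exact permutation p = 0.375 for each).

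Nuclear genes were then compared as sums per library, high-mitochondrial against the rest, with values in CPM of nuclear UMIs so that the mitochondrial counts do not enter. Over all classes edgeR's quasi-likelihood test with the library as a block called 9093 of 15565 genes at an adjusted p under 0.05 (58.4%), 4040 higher and 5053 lower. This fit mixes the difference in classes with differences inside them. The median log2 ratio of all genes tested was -0.24.

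Among the genes of at least 50 CPM named for a rise over all classes were genes of mature enterocytes. Slc5a12 had 276 and 1515 CPM in high-mitochondrial barcodes of mutant 1 and mutant 2 and 368 and 1798 CPM in those of wild type 1 and wild type 2, against 7.25, 97.8, 13.7 and 104 CPM in the rest (log2 ratio 4.25, SE 0.21, adjusted p = 4.09e-07). Its level differed more between sets than between genotypes, but high-mitochondrial barcodes exceeded the rest in 4 of 4 libraries. Lct had 252, 721, 315 and 670 CPM, against 11.8, 49.2, 15.2 and 55.7 CPM in the rest (3.80, SE 0.16, adjusted p = 3.49e-07). Xdh, xanthine dehydrogenase, had 742, 2120, 999 and 2229 CPM, against 47.8, 166, 78.2 and 154 CPM (3.53, SE 0.18). The peptidase Mme rose by 3.58, the nucleotide pyrophosphatase Enpp3 by 3.63, the drug-metabolising Cyp3a11 by 3.97 and the acyl-CoA thioesterase Acot12 by 3.84 on the log2 scale. Slc2a7, Gdpd2 and Efr3b, named by the same rule, rose by 3.97, 3.93 and 3.87. Of 27 genes for the absorption of sugar, peptide and fat, 25 were called higher and none lower, with a median of 2.50, where 26% of all genes were called higher.

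Among the genes named for a fall over all classes were markers of secretory cells, a histone gene and ribosomal protein genes. Agr2, a disulfide isomerase of mucus-secreting cells, had 712 and 225 CPM in high-mitochondrial barcodes of mutant 1 and mutant 2 and 772 and 260 CPM in those of wild type 1 and wild type 2, against 3121, 2544, 5083 and 2802 CPM in the rest (-3.21, SE 0.23, adjusted p = 2.46e-06). The granule protein and hormone genes Chgb and Sst of enteroendocrine cells fell by 2.82 and 2.79 and the histone gene Hist1h2ap by 3.06. All 79 genes of cytosolic ribosomal proteins were called lower, with a median log2 ratio of -2.48. So were 35 of 36 nuclear complex I subunits, 38 of 38 subunits of complexes II to V, 22 of 29 genes of mtDNA maintenance and expression, and 20 of 30 genes of the integrated stress response, with 2 of the last higher. In this fit 32.5% of all genes were called lower and 26% higher. Rps15a, one of the ribosomal protein genes, had 1097, 295, 728 and 252 CPM, against 3467, 3101, 2728 and 2895 CPM in the rest.

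Comparing within the enterocyte-like class removes the difference between classes but not that between its clusters. The same test called 5098 of 10670 genes (47.8%), 2449 higher and 2649 lower, with a median ratio of all genes of 0.04. Ileal genes led the lower side. Fabp6, the ileal bile-acid-binding protein, had 705 and 407 CPM in high-mitochondrial barcodes of mutant 1 and mutant 2 and 485 and 269 CPM in those of wild type 1 and wild type 2, against 7278, 7024, 10239 and 4484 CPM in the rest (-4.16, SE 0.17, adjusted p = 1.7e-10). Slc10a2 fell by 4.02, and the regenerating-family lectins Reg1 and Reg3b by 3.87 and 3.46. The cluster that Slc10a2 leads held 24 of the 4919 high-mitochondrial barcodes of this class and 1320 of its 7198 others, and the part of this mix in the class-wide values was not tested. Inside the Slc5a12 and Lct cluster alone, Fabp6 and Slc10a2 were still called lower, by smaller ratios (-0.66, adjusted p = 0.0445, and -1.48, adjusted p = 0.0246), and Reg3b was not called (-0.61).

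The genes that rose within the class included Pck1, the gluconeogenic phosphoenolpyruvate carboxykinase, with 31.2, 236, 39.7 and 221 CPM in high-mitochondrial barcodes, against 10.2, 57.6, 18.7 and 67.4 CPM in the rest of mutant 1, mutant 2, wild type 1 and wild type 2 (1.58, SE 0.12, adjusted p = 3.13e-08). Slc28a1, a pyrimidine nucleoside transporter, rose by 1.56 and the noncoding Gm26917 by 1.75. Lars2, Gphn and Cmss1 rose by 1.46, 1.34 and 1.28. With Gm42418 they were among the leading genes of a cluster without a name, described below under other observations. Which loci gave the reads counted for these genes was not tested. In the nuclear-encoded respiratory chain, 35 of 36 complex I subunits and 38 of 38 subunits of complexes II to V were called lower and none higher, with medians of -1.33 and -1.38. Among all genes tested in this class 24.8% were called lower. Uqcrb, a complex III subunit, had 172, 125, 106 and 110 CPM in high-mitochondrial barcodes, against 452, 525, 368 and 545 CPM in the rest (-2.11, SE 0.13, adjusted p = 4.95e-09). The 18 enterocyte markers, read within this class, were lower in sum in high-mitochondrial barcodes: 32889, 46596, 36552 and 37701 CPM, against 51262, 70243, 53620 and 67072 CPM in the rest.

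Inside the Slc5a12 and Lct cluster, a comparison added after the clusters were seen, far fewer genes differed. The test called 236 of 9375 genes (2.52%), 134 higher (1.43%) and 102 lower (1.09%), with a median ratio of all genes of 0.01. Plb1, a brush border phospholipase, had 96.1 and 12.99 CPM in high-mitochondrial barcodes of mutant 1 and mutant 2 and 93.9 and 12.7 CPM in those of wild type 1 and wild type 2, against 311, 136, 377 and 216 CPM in the rest (-2.85, SE 0.26, adjusted p = 2.52e-05). Fam151a fell by 1.90, and Tmigd1, an adhesion molecule of the enterocyte, by 1.30. Fabp2, the intestinal fatty-acid-binding protein, had 2859, 4105, 3831 and 2062 CPM, against 7236, 6134, 6157 and 4435 CPM (-0.93, SE 0.16, adjusted p = 0.00849). Pck1 stayed higher, with 39.3, 264, 46.9 and 238 CPM, against 22.9, 144, 36.3 and 134 CPM (0.79, SE 0.11, adjusted p = 0.00284), as did Gm26917 (0.89) and Slc28a1 (0.77). Reg1, called lower over the whole class, had a ratio of 0.27 here, and Slc5a12 and Enpp3, called higher there, had ratios of 0.23 and 0.44 and were not called.

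The broad shifts shrank inside that cluster. Ribosomal protein genes called lower numbered 9 of 79 (median -0.53), complex I subunits 6 of 36 (median -0.20), and subunits of complexes II to V 3 of 38 (median -0.25), and none of these were called higher. The share of all genes called lower there was 1.09%. Of the genes of the integrated stress response 0 of 19 were called, with a median of 0.14, and likewise 0 of 16 apoptosis and p53 target genes, 0 of 15 immediate early genes and 0 of 21 interferon-stimulated genes. With 2.52% of all genes called in the cluster, no call in lists this short lies near that share. The 18 enterocyte markers summed to 33079, 46485, 37299 and 36982 CPM in high-mitochondrial barcodes of mutant 1, mutant 2, wild type 1 and wild type 2, against 34646, 45951, 41516 and 40370 CPM in the rest.

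Of 7 nuclear-retained noncoding RNAs tested, 4 were called higher over all classes, where 26% of all genes were. Malat1, one of them, had 15043 and 32195 CPM in high-mitochondrial barcodes of mutant 1 and mutant 2 and 20435 and 33588 CPM in those of wild type 1 and wild type 2, against 2782, 5819, 4641 and 6477 CPM in the rest (2.09, SE 0.25, adjusted p = 4.72e-05). Neat1, which scaffolds paraspeckles, rose by 2.32. None of the 7 was called lower (median 1.09). Those called higher were 4 of 6 within the enterocyte-like class (median 0.66), where 23% of all genes were, and 1 of 5 inside the Slc5a12 and Lct cluster (median 0.28). Malat1 itself had a ratio of 0.60 within the enterocyte-like class (adjusted p = 0.00482) and 0.33 inside the cluster, where it was not called. The annotated Gm42418, chosen after its values were seen, had 22303, 60785, 47754 and 89592 CPM, against 2975, 9712, 6731 and 10901 CPM in the rest (2.59 over all classes).

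**Figure D4:**
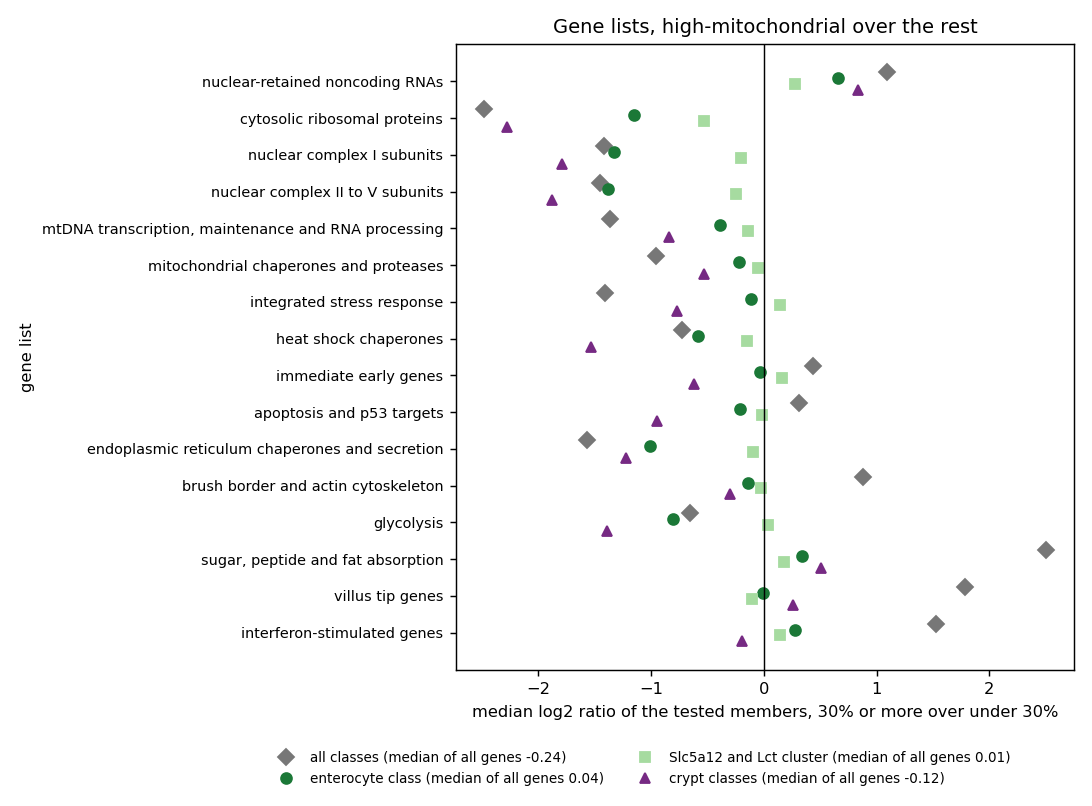
Median log2 ratio of 16 nuclear gene lists (x axis, high-mitochondrial over the rest, CPM of nuclear UMIs), with 1 symbol for each set of barcodes compared. Ribosomal proteins lie at -2.48 over all classes, -1.15 in the enterocyte-like class, -2.28 in the crypt classes and -0.53 in the Slc5a12 and Lct cluster, and that cluster's symbols lie nearest 0 for most lists.

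The 346 high-mitochondrial barcodes of the crypt classes were compared with the rest of those classes in the same way. The test called 4758 of 12591 genes (37.8%), 1878 higher and 2880 lower, and the median ratio of all genes was -0.12. All 79 ribosomal protein genes were called lower (median -2.28), as were 34 of 36 complex I subunits (median -1.78), beside 22.9% of all genes. Rps4x had 1372 and 677 CPM in high-mitochondrial barcodes of mutant 1 and mutant 2 and 1117 and 1280 CPM in those of wild type 1 and wild type 2, against 5051, 4512, 4620 and 4309 CPM in the rest (-2.74, SE 0.25, adjusted p = 2.66e-24). The interferon-induced membrane protein gene Ifitm3 fell by 2.75 and the chromatin protein gene Hmgn2 by 2.68.

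Stem markers moved both ways in these barcodes, and the 11 together were lower in sum in each library. They summed to 6381, 4261, 5775 and 6403 CPM in mutant 1, mutant 2, wild type 1 and wild type 2, against 7717, 6906, 7195 and 6626 CPM in the rest. Lgr5, the Wnt-target receptor of crypt base stem cells, had 293, 354, 426 and 874 CPM in high-mitochondrial barcodes, against 138, 168, 212 and 199 CPM in the rest (0.70, SE 0.17, adjusted p = 0.000162). Rnf43, a ubiquitin ligase that limits Wnt receptors, rose by 0.93. Olfm4, a secreted stem cell glycoprotein, fell instead, with 3386, 1282, 2924 and 1527 CPM against 6025, 4926, 5494 and 4472 CPM (-1.95, SE 0.25, adjusted p = 4.6e-13), and the transcription factor Ascl2 fell by 2.06. Among 12 cycling markers 6 were called lower and none higher, where 22.9% of all genes were called lower and 14.9% higher. Cmss1 rose most of the genes named by the rule, with 742, 4803, 1024 and 7336 CPM against 240, 284, 296 and 315 CPM in the rest (2.39, SE 0.23, adjusted p = 1.45e-23).

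Transcripts of Paneth cells were present in high-mitochondrial barcodes that were not Paneth-like. The 14 Paneth markers summed to 19600 and 22712 CPM in all high-mitochondrial barcodes of mutant 1 and mutant 2, against 8786 and 15868 CPM in those of wild type 1 and wild type 2, although only 3 of the 5982 barcodes were Paneth-like. Inside the Slc5a12 and Lct cluster they summed to 19913, 22086, 8099 and 15090 CPM in high-mitochondrial barcodes of mutant 1, mutant 2, wild type 1 and wild type 2, against 9825, 14963, 6626 and 10575 CPM in the rest. In the crypt classes they summed to 16300, 27508, 8186 and 21957 CPM, against 3033, 5985, 1305 and 4207 CPM. All 14 were called higher within the enterocyte-like class (median 1.03) and within the crypt classes (median 1.78), and 11 of 14 inside the Slc5a12 and Lct cluster (median 0.59). The shares of all genes called higher in these comparisons were 23%, 14.9% and 1.43%, in the same order. Defa5, an alpha-defensin, had 330, 281, 143 and 185 CPM in high-mitochondrial crypt barcodes, against 44.4, 63.9, 17.4 and 29.6 CPM in the rest (2.04, SE 0.19, adjusted p = 5e-25).

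Markers of other cell types were also counted. Goblet markers were called higher for 8 of 11 in the crypt classes and 6 of 10 inside the Slc5a12 and Lct cluster, with none lower, and for 3 of 11 within the enterocyte-like class, with 1 lower. Of all genes tested, 14.9% were called higher in the crypt classes, 1.43% inside the cluster and 23% within the enterocyte-like class. The goblet count within the enterocyte-like class lay near that last share. Enteroendocrine markers were called higher for 6 of 11 in the crypt classes (median 1.70), 7 of 11 within the enterocyte-like class and 2 of 11 inside the cluster. Sct, the enteroendocrine hormone secretin, rose by 2.32 in high-mitochondrial crypt barcodes. In the crypt classes the 18 enterocyte markers summed to 1828, 3627, 1562 and 3417 CPM in high-mitochondrial barcodes, against 1100, 1995, 1023 and 1534 CPM. High-mitochondrial barcodes also had fewer nuclear UMIs than the rest of their class, by 7.26 to 12.9 times in the crypt classes, and the part of free RNA and of depth in these differences was not tested. The 8 stromal markers summed to 0.891 to 2.09 CPM in high-mitochondrial barcodes, against 0.162 to 0.560 CPM in the rest, higher in 4 of 4 libraries, with 4 of the 8 at 0 in all high-mitochondrial barcodes and Tagln called higher (2.13, from 12 UMIs). The 5 endothelial markers summed to 2.09 to 11.6 CPM against 3.59 to 6.11 CPM, with 3 of the 5 at 0 and Pecam1 called higher (1.13). The 7 myeloid markers summed to 1.78 to 6.26 CPM against 2.37 to 6.94 CPM, with 2 of the 7 at 0. Doublets were called for 2.48% and 1.87% of high-mitochondrial barcodes in mutant 1 and mutant 2 and for 1.47% and 4.54% in wild type 1 and wild type 2, against 10.4%, 10.1%, 4.48% and 9.76% of the rest.

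The mitochondrial UMIs of the high-mitochondrial barcodes, 6762130 in all, had mt-Atp6 (complex V) and mt-Co3 (complex IV) as the most and second most abundant of the 13 mRNAs in every library, in either order. Each UMI counts one captured 3′ end, so these shares do not scale with transcript length. Mt-Atp6 gave 26.0% and 17.9% in mutant 1 and mutant 2, against 24.2% and 19.8% in wild type 1 and wild type 2. It was the most abundant mRNA in both set A libraries, while mt-Co3 was the most abundant in both set B libraries. Mt-Co3 gave 20.9% and 20.9% in mutant 1 and mutant 2, against 19.4% and 22.0% in wild type 1 and wild type 2.

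The rest of the make-up fell into an intermediate and a rare group. Mt-Co2 gave 15.04% and 13.5% in mutant 1 and mutant 2, against 14.2% and 12.97% in wild type 1 and wild type 2. Mt-Co1, the catalytic subunit of complex IV, gave 8.77% and 14.002%, against 11.7% and 17.6%. Mt-Cytb, the only mitochondrially encoded subunit of complex III, gave 9.32% and 11.0%, against 9.07% and 8.13%. Among complex I mRNAs, mt-Nd1 gave 7.56% and 8.74%, against 7.38% and 6.15%, and mt-Nd4 gave 6.60% and 7.30%, against 7.995% and 6.89%. Mt-Nd2, mt-Nd3 and mt-Nd5 each lay between 1.00% and 3.09% in every library. Mt-Nd4l, mt-Nd6 and mt-Atp8 each stayed at or below 0.73%. The annotated mt-Nd4l and mt-Atp8 overlap the starts of mt-Nd4 and mt-Atp6, and mt-Nd6 lies on the minus strand. The part of these features in the low counts was not tested. Exact 95% intervals for counting error were at most 0.102 percentage points to either side, so every difference of 1 point between libraries exceeds counting error.

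Summed by complex, the 7 complex I mRNAs gave 19.9% and 22.4% in mutant 1 and mutant 2, against 21.4% and 19.3% in wild type 1 and wild type 2. Complex IV gave 44.7% and 48.5%, against 45.3% and 52.5%, and complex V gave 26.1% and 18.1%, against 24.3% and 20.0%. The sets differed more than the genotypes for several mRNAs: the set B mean exceeded the set A mean by 5.58 percentage points for mt-Co1 and fell short of it for mt-Atp6 (-6.24).

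Between genotypes, 6 of the 13 mRNAs differed in the same direction in both sets. Of all 10801 genes compared by level between genotypes, 26.4% were higher and 27.2% lower in mutants in both sets. Agreement between sets was thus no more frequent for the 13 mRNAs than for all genes. Mt-Cytb was higher in the mutant libraries, 10.2% ± 1.20 against 8.60% ± 0.66 in wild type libraries (SD, n = 2 each), by 0.25 percentage points in set A and 2.88 in set B. Mt-Nd1 was higher by 0.19 points (A) and 2.59 points (B). Mt-Co2 was higher by 0.82 and 0.56 points. For mt-Co1 the mutant minus wild type difference was -2.90 points in set A and -3.58 in set B. For mt-Nd6 and mt-Atp8 the differences were at most 0.05 points in size. The exact two-sided permutation p was 0.33 for mt-Nd1 and for mt-Cytb, the smallest that 2 against 2 libraries allow, so this design cannot pass a threshold of 0.05. The barcodes of the rest gave differences of the same sign for these mRNAs except mt-Nd6 (0.00057 points in set A and -0.047 in set B). In the rest they were 0.33 and 2.03 points in sets A and B for mt-Nd1, 1.02 and 3.14 for mt-Cytb, and -3.17 and -2.27 for mt-Co1. In high-mitochondrial barcodes of the crypt classes, mt-Nd1 differed by -0.28 points in set A and 1.73 in set B.

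**Figure D5:**
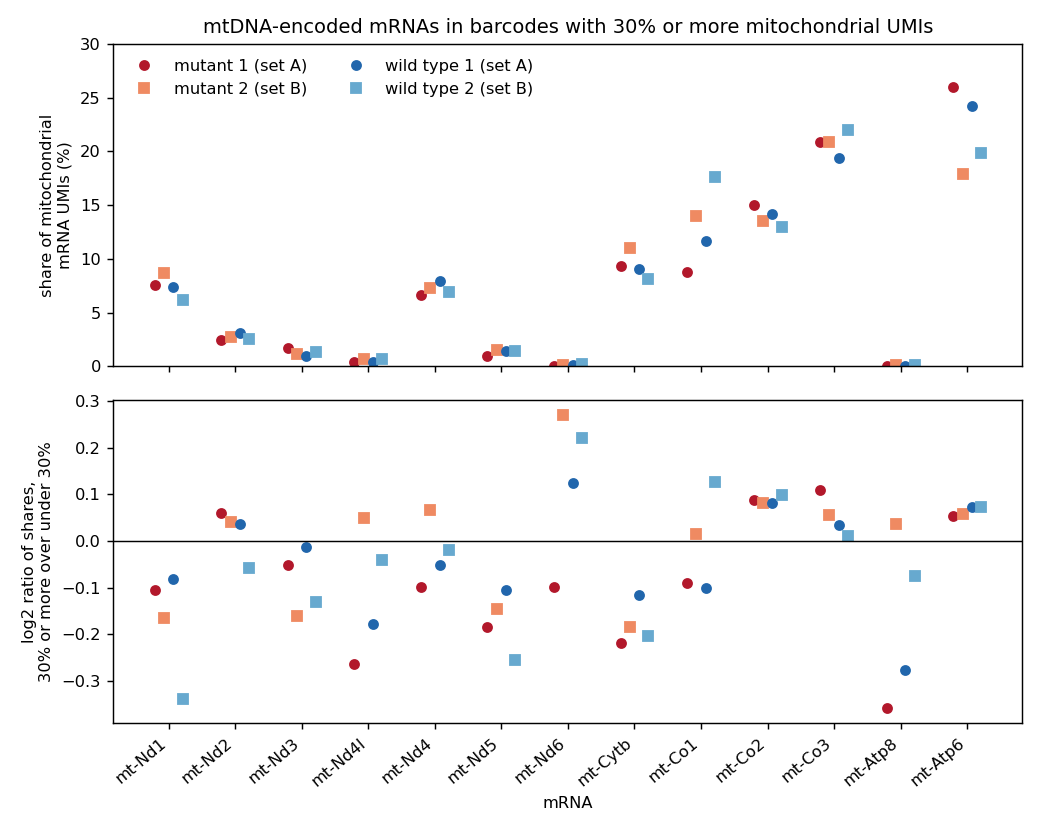
Top, share of mitochondrial mRNA UMIs (y axis, percent) given by each of the 13 mRNAs (x axis) in high-mitochondrial barcodes, 1 point per library. Bottom, log2 ratio of that share in high-mitochondrial barcodes over the rest of the same library: mt-Nd1, mt-Nd3, mt-Nd5 and mt-Cytb lie below 0 and mt-Co2, mt-Co3 and mt-Atp6 above it in all 4 libraries.

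The make-up differed little from that of the rest. Over all classes 7 of 13 mRNAs kept 1 direction in all 4 libraries, with mean log2 ratios of -0.18 for mt-Cytb, -0.17 for mt-Nd1, -0.17 for mt-Nd5 and -0.09 for mt-Nd3, and of 0.09 for mt-Co2, 0.06 for mt-Atp6 and 0.05 for mt-Co3 (exact sign-flip permutation p = 0.13 for each, the smallest that 4 pairs allow). For mt-Cytb the shares were 9.32%, 11.0%, 9.07% and 8.13% in high-mitochondrial barcodes of mutant 1, mutant 2, wild type 1 and wild type 2, against 10.8%, 12.5%, 9.83% and 9.36% in the rest.

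Some of these directions turned within a cell class. Inside the Slc5a12 and Lct cluster the mean log2 ratio was 0.15 for mt-Cytb and 0.13 for mt-Nd1, each higher in high-mitochondrial barcodes in 4 of 4 libraries. Mt-Co1 was lower there in 4 of 4 libraries (-0.20), and also in the crypt classes (-0.33), while over all classes it had no common direction (-0.01). Mt-Nd5 was lower and mt-Atp6 higher in 4 of 4 libraries in each of the comparisons: over all classes, in the enterocyte-like class, in the cluster and in the crypt classes. For mt-Nd5 the mean ratio was -0.17, -0.10, -0.22 and -0.17 in these comparisons, and for mt-Atp6 it was 0.06, 0.07, 0.06 and 0.10.

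Mutant and wild type high-mitochondrial barcodes were also compared over all genes, mitochondrial ones included, as sums per library. Without a term for the set, edgeR called 0 of 10801 genes (0%) and DESeq2 likewise 0, while 21 and 14 genes had an unadjusted p under 0.05 in these tools. Without wild type 2, edgeR called Pdk4 and Tmprss15 higher, both with 0 UMIs in wild type 1, the one wild type library left. With the set as a block edgeR called 28 (0.259%), 23 higher (0.213%) and 5 lower (0.0463%) in mutant libraries, and DESeq2 with that block called 5, all among the 28: Defa5, Defa21, Defa22, Ang4 and Clca4a. Of the 5 called lower by edgeR, Tmprss15 and Cyp2c29 had 0 UMIs in both set A libraries, so their values rest on set B. The values below are UMIs per 1000000 UMIs of all tested genes, and the calls all come from the fit with the set as a block. That fit is an alternative to the main one and spends a further term on the same 4 libraries. In the main edgeR fit, without the set term, Defa5, Ang4 and Herc6 each had an adjusted p of 0.9999.

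Interferon-stimulated genes were among those higher in mutant high-mitochondrial barcodes. Ifit1, an interferon-induced RNA-binding protein, had 53.6 and 46.2 in mutant 1 and mutant 2, against 16.7 and 19.4 in wild type 1 and wild type 2 (log2 ratio 1.35, SE 0.20, adjusted p = 0.0101). Ifit3 had 15.9 and 8.66, against 2.04 and 2.31 (2.19, adjusted p = 0.0222). Both mutant libraries exceeded both wild type libraries for each of these genes. Usp18 and Oasl2 were also called, which makes 4 of the 21 listed genes tested, and 15 of the 21 were higher in mutants in both sets (set medians 0.31 for A and 0.85 for B), as were 26.4% of all genes tested. DESeq2 with the same block called none of these interferon-stimulated genes. Herc6, an interferon-induced ubiquitin ligase family member, had 94.7 and 59.8, against 39.1 and 26.5 (1.15, adjusted p = 0.0106). In the rest Ifit1 had 6.23 and 11.9 CPM of nuclear UMIs in mutant 1 and mutant 2, against 4.99 and 4.80 CPM in wild type 1 and wild type 2.

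Defensins and other Paneth products were the other group. Defa5 had 211 and 186 in mutant 1 and mutant 2, against 75.8 and 89.5 in wild type 1 and wild type 2 (1.18, SE 0.17, adjusted p = 0.0101), and the antimicrobial angiogenin Ang4 had 314 and 238, against 131 and 114 (1.08, adjusted p = 0.0101). Of the 14 Paneth markers, 8 were called higher with the set as a block, beside 0.213% of all genes, and the main fit called none. All 14 were higher in mutants in both sets (set medians 1.14 for A and 0.81 for B), as were 26.4% of all genes tested. Paneth-like barcodes among these were 2 and 0 in the mutant libraries and 0 and 1 in the wild type libraries, and in the rest the Paneth marker sum was 46456 and 95597 CPM in mutant 1 and mutant 2, against 27563 and 73286 CPM in wild type 1 and wild type 2. The part of free RNA in this difference was not tested.

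Of the integrated stress response genes, which cells switch on through ATF4 when translation or mitochondria are disturbed, 1 of 25 was called. Atf5, a transcription factor of that response, had 9.85 and 5.07 in mutant 1 and mutant 2, against 2.44 and 0.926 in wild type 1 and wild type 2 (2.15, SE 0.43, adjusted p = 0.0468). DESeq2 with the same block did not call it. Of the 25, 16 were higher in mutants in both sets and 1 was lower in both, against 26.4% and 27.2% of all genes tested. Genes of cytosolic ribosomal proteins were higher in both sets for 67 of 79, and complex I subunits for 25 of 36, with none called, beside that 26.4% of all genes. Clca4a, an enterocyte gene listed with the villus tip, was called lower, with 169 and 370 in mutant 1 and mutant 2, against 234 and 1087 in wild type 1 and wild type 2 (-1.12, SE 0.22, adjusted p = 0.0412). Of 13 villus tip genes tested, 7 were lower in mutants in both sets, as were 27.2% of all genes, and none higher. In the enterocyte-like class alone, without a set term, edgeR called 0 genes, with 103 at an unadjusted p under 0.05.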

How the data were processed

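The deposited files hold raw whole-number UMI counts for each gene in each barcode. Cell Ranger 7.0.0 wrote those of set A and 7.1.0 those of set B, per the file headers, and the build is mm10, per the submitters' processing notes. Libraries were made with a 10x 3′ kit per the labels' protocols. How introns were counted and cells called is not given in the sources used here. In all, the 4 libraries held 127796409 and 119029754 UMIs (mutant 1 and 2) and 99772712 and 112430029 UMIs (wild type 1 and 2). Members, gene lists and markers were chosen with earlier results of these data known.

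Barcodes under 30% were clustered in scanpy 1.11.5 on 2000 variable nuclear genes centred per library (50 principal components, 15 neighbours, Leiden resolution 1). The rule for naming a cluster was set after the data were seen: at least 3 markers of a class among its 50 leading genes, at least 2 times those of any other class, and at least 1 among its top 10. Such names are rebuilt here and are not the authors'. Doublets were scored per library with scrublet and left in. Its automatic threshold called 16.9%, 4.22%, 0.0778% and 0% in mutant 1, mutant 2, wild type 1 and wild type 2, so 0.8% per 1000 barcodes was called instead, and leaving those out is an alternative.

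UMI counts were summed per library and barcode group and tested with edgeR 4.0.16 (R 4.3.3), quasi-likelihood, adjusted over all genes tested, called at 0.05. DESeq2 1.42.0 was an alternative, with other limits (20%, 40%, 50%), no minimum, 2000 UMIs, thinning to 500 UMIs, joint clustering, and each library left out. The procedure was tested on simulated data. Genes were named by size of change among those called with the same sign in all 4 libraries and at least 50 CPM, up to 10 per direction and fit, plus markers and list members. For genotype, the set was left out of the main fit because the labels carry no replicate numbers. The numbers 1 and 2 follow accession order, and sets are defined by title. Intervals cover counting error only. Sequence and coordinates came from GENCODE vM21.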

Additional observations from a re-analysis of the deposited data

Results flagged for a closer look

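The mutant and wild type libraries differed in opposite directions in the 2 sets for several measures of the high-mitochondrial barcodes. With 1 mutant and 1 wild type library in each set, none of these differences between sets was tested. The values are mutant minus wild type, set A and then set B.

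For shares of mitochondrial UMIs, in percentage points, they were -0.65 and 0.24 for mt-Nd2, 0.74 and -0.14 for mt-Nd3, 0.050 and -0.0016 for mt-Nd4l, and -1.39 and 0.41 for mt-Nd4. They were -0.41 and 0.042 for mt-Nd5, 1.51 and -1.06 for mt-Co3, and 1.82 and -1.89 for mt-Atp6.

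For shares of high-mitochondrial barcodes, in percentage points, they were 1.78 and -0.919 for the enterocyte-like class, 4.72 and -0.000296 for the cycling-like class and -12.2 and 1.30 for unnamed clusters. The median mitochondrial share of these barcodes differed by -3.31 and 0.25 percentage points, and their median nuclear UMI count by -955 and 201 UMIs. Of high-mitochondrial barcodes, 0 in mutant 1 and 75 in wild type 1 joined the unnamed cluster led by Hnrnpa0.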

How the results depend on the processing

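Limits of this design are the 2 libraries per genotype, the set difference and class names rebuilt from markers. The number of classes called was 7 and ranged from 4 to 8 as each library was left out (4 without mutant 2 and 4 without wild type 2). Stem-like lost its call under thinning (adjusted p = 0.0676), and cycling-like gained one under thinning (0.0215), under joint clustering (0.0384) and without wild type 1 (0.00346). Tuft-like and T-cell-like lost theirs at a 40% limit (0.112 and 0.145). Genes called within the enterocyte-like class fell to 3358 at a 40% limit and to 236 in the Slc5a12 and Lct cluster alone, and crypt calls to 2317 at 40% (367 higher, 1950 lower). Genotype calls were 0 without a replicate block, 28 with the set as a replicate block, 5 in DESeq2 with that block, and 0 to 2 as each library was left out (2 without wild type 2: Pdk4 at 9.70 and Tmprss15 at 9.42 on the log2 scale, both at 0 UMIs in wild type 1, so these sizes depend on the prior count, and Tmprss15 had -1.37 under the set block). The set as a block changed no other genotype call, and no paired analysis by replicate number was possible because the labels carry none. Without the library as a replicate block 8849 genes were called over all classes, against 9093 with it. Reversed in sign were the unnamed class under joint clustering (3.09 on the log2 scale, against -0.42), Reg1 (0.27) and Gsta1 (0.58) in the Slc5a12 and Lct cluster alone. The unnamed class does not hold the same barcodes in both runs. Its high-mitochondrial barcodes were mainly in the Hnrnpa0 cluster in the main run (133) and in the Gm42418 cluster under joint clustering (1308). Of those 1308, the vote had placed 1254 in the enterocyte-like class. The cause of the changes in this section was not tested. Some of the named genes were followed through the alternative runs. All 130 values for a gene in a run over all classes, and all 99 in the crypt classes, kept direction and call. Not every gene named in the text was followed. The difference in share between genotypes was -1.08 to -5.88 points over limits of 20% to 50%, and -10.7 to 1.48 as each library was left out. The make-up comparison of genotypes gives no value with a library left out. Of Paneth-like, tuft-like and T-cell-like barcodes 3, 3 and 2 were high-mitochondrial.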

Other observations

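When high-mitochondrial barcodes and the rest were clustered together on nuclear genes, 1 cluster without a name was led by Gm42418, Lars2, Cmss1, Cyp3a11, Gphn and Slc5a12. It held 106 and 444 high-mitochondrial barcodes in mutant 1 and mutant 2 and 54 and 704 in wild type 1 and wild type 2, which is 1308 of its 1900 barcodes and 21.9% of all high-mitochondrial barcodes. Of these 1308, the vote among neighbours had placed 1254 in the enterocyte-like class. Under this clustering the enterocyte-like share of high-mitochondrial barcodes was 41.0% and 68.0% in mutant 1 and mutant 2 and 43.2% and 64.0% in wild type 1 and wild type 2, against 8.98%, 26.0%, 19.2% and 26.9% of the rest.

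Barcodes below the minimum of 1000 UMIs and 500 genes went into no comparison. Of those, 1002 and 1415 in mutant 1 and mutant 2 and 474 and 1286 in wild type 1 and wild type 2 had 30% or more mitochondrial UMIs, which is 68.8%, 82.5%, 57.1% and 74.7% of the barcodes below the minimum in each.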
